A study of Mus musculus with 16 samples.

Results

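The genes described here are 9 textbook markers of eosinophils, basophils and mast cells, measured in the splenic M-MDSCs (monocytic myeloid-derived suppressor cells) and G-MDSCs (granulocytic ones) of tumor-bearing mice. The 5 eosinophil markers (Ccr3, Siglecf, Il5ra, Prg2 and Epx) and 4 basophil and mast cell markers (Cpa3, Fcer1a, Mcpt8 and Prss34) were taken by symbol out of 24421 gene symbols, and all 9 were present in the count tables. They were chosen by name with their measured counts and CPM over the 4 groups already known, so their levels and fold changes are a description. Where a marker is said to lie past the thresholds used for all genes, this too only describes it and is no test of it. WT mice and Nlrp3-/- mice of the C57BL/6 strain, aged 6 to 12 weeks and matched for sex and age, received 300000 B16.F10 melanoma cells subcutaneously at the back. The Nlrp3-/- allele is constitutive and carries an EGFP cassette joined to the start codon of Nlrp3 in exon 2, so it is not limited to MDSCs. CD11c- CD11b+ Ly6C+ Ly6G- M-MDSCs and CD11c- CD11b+ Ly6C- Ly6G+ G-MDSCs were sorted from the spleen, by default 15 days after tumor induction and at a purity above 95%. Both subsets of 4 WT and 4 Nlrp3-/- mice gave 16 libraries, each from a single mouse, with 4 in every group. Every group carried the tumor, and cells of tumor-free mice were not analysed here.

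Eosinophils and basophils are granulocytes that arise in the bone marrow and also reside in the spleen. Eosinophils depend on interleukin 5 for their survival, migrate towards eotaxins through CCR3, carry the sialic acid-binding lectin Siglec-F on their surface, and store major basic protein (Prg2) and eosinophil peroxidase (Epx) in their granules. Much of the granule protein mRNA is made while eosinophils are still immature in the marrow. Basophils and mast cells bind IgE through a high-affinity receptor whose alpha chain is encoded by Fcer1a, and store proteases. In the mouse, Mcpt8 and Prss34 mark basophils, whereas Cpa3 is shared by basophils and mast cells. Neither eosinophils nor basophils were a target of the sort, although eosinophils carry CD11b.

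GATA factors govern the eosinophil, basophil and mast cell lineages. The promoters of Ccr3 and Siglecf, the markers whose values and ratio are compared most closely below, are shown beside that of Epx, which had few reads. They were read from RefSeq (GRCm38.p6), which held 8 of the 9 genes (not Prg2), and run 5′ to 3′ on the strand of the gene from 250 bases before the start site to 50 bases from it onwards. Capitals mark the letters GATAA or, on the other strand, TTATC.
Ccr3, chr9:124021721-124022020, plus strand: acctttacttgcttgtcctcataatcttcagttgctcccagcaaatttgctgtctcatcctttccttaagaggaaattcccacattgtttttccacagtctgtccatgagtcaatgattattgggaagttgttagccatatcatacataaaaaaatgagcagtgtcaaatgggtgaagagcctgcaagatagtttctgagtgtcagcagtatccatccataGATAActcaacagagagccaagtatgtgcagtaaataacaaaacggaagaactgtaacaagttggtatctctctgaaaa
Siglecf, chr7:43351091-43351390, plus strand: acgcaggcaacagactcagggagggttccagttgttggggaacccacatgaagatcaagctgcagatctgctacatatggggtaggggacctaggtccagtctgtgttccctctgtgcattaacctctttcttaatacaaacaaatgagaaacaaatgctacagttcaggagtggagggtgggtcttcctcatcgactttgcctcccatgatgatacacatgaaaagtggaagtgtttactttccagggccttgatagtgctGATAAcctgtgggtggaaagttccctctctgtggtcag
Epx, chr11:87875487-87875786, minus strand: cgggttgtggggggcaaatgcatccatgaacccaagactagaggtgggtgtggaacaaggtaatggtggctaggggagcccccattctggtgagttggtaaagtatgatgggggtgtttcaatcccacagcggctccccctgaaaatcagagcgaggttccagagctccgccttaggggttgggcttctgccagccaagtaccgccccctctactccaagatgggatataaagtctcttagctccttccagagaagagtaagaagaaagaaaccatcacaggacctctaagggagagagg
Counted from 0 at the start site, the motif of Ccr3 began at −29 and that of Siglecf at 12, while the Epx window held none. In all, 6 of the 8 windows held GATAA on either strand, namely those of Ccr3, Siglecf, Il5ra (−73), Cpa3 (−45), Fcer1a (−92) and Prss34 (−30). Of 32851 promoters of the same length, 25.4% held it. A match is only a run of letters and was not tested as a binding site.

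Libraries held 2295967 to 6079866 counts. Levels are CPM, counts scaled to library size with TMM factors over the 16 libraries, and 3 counts in a library, taken as the smallest amount that can be shown, were 0.349 to 1.17 CPM. This limit covers counting error only. Counts of the targeted gene Nlrp3 were 219 to 632 in WT against 4 to 11 in Nlrp3-/- M-MDSC libraries, and 744 to 1365 against 21 to 59 in G-MDSC libraries. Summed markers of neutrophils of WT mice lay at 1139 to 6616 CPM in M-MDSCs against 105866 to 134357 CPM in G-MDSCs, and those of monocytes at 5633 to 7788 against 633 to 943 CPM, as the labels of the subsets say. Of the neutrophil list, Ly6g was not analysed here. The row Rn45s, a ribosomal RNA precursor, held 13.4% to 25.9% of the counts in WT and 5.60% to 13.5% in Nlrp3-/- libraries. Leaving it out changed neither which markers passed the thresholds in any comparison nor a sign.

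Ccr3, the eotaxin receptor (mm10, chr9:124021972-124031689, plus strand), was the marker with reads throughout, with at least 8 counts in each of the 16 libraries. WT M-MDSC libraries had 19, 31, 8 and 34 counts and Nlrp3-/- M-MDSC libraries 165, 278, 98 and 109. Every Nlrp3-/- M-MDSC library thus lay above every WT one, also in CPM. WT G-MDSC libraries had 26, 19, 59 and 58 counts and Nlrp3-/- G-MDSC libraries 97, 142, 146 and 95. These groups touched in CPM, since the highest WT library (22.6) lay just above the lowest Nlrp3-/- library (22.4). Mean Ccr3 levels were 28.2 ± 5.64 CPM in Nlrp3-/- G-MDSCs, 25.3 ± 15.0 in Nlrp3-/- M-MDSCs, 12.99 ± 7.19 in WT G-MDSCs and 5.24 ± 4.45 in WT M-MDSCs (SD, n = 4 each). In that order each pair of adjacent groups overlapped. The order of the upper pair depends on the scaling, since by library size alone Ccr3 averaged 34.4 CPM in Nlrp3-/- M-MDSCs and 21.7 in Nlrp3-/- G-MDSCs. In sorted bulk samples such as these, fewer cells of a type and less RNA per cell cannot be told apart.

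**Figure D1:**
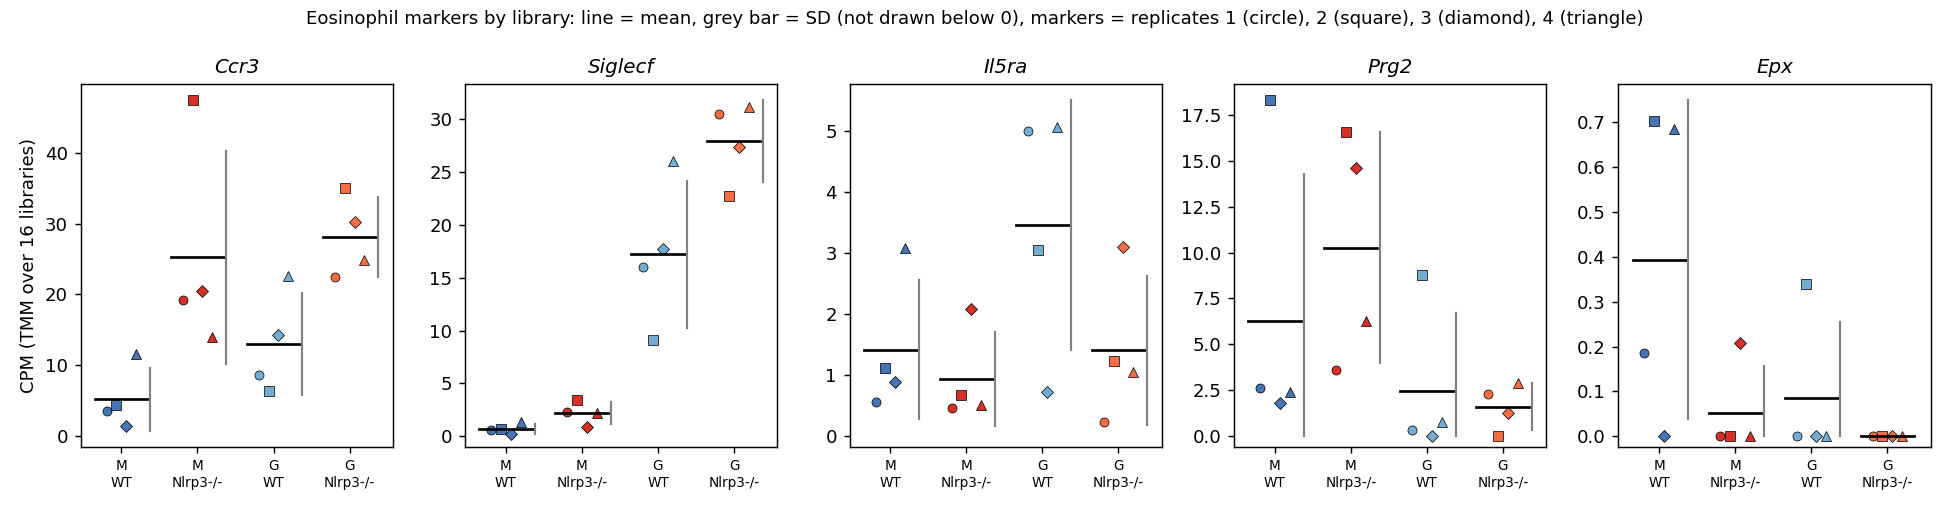
CPM of the 5 eosinophil markers in each of the 16 libraries, by subset (M, G) and genotype; each panel has its own linear axis, the line is the mean and the grey bar the SD of 4 mice. Ccr3 separates the genotypes in M-MDSCs, Siglecf separates G-MDSCs from M-MDSCs, and the square of WT replicate 2 stands above the other WT libraries for Prg2 in both subsets.

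Siglecf, the surface lectin that marks mouse eosinophils (chr7:43351341-43359531, plus strand), followed the subset. WT G-MDSC libraries had 48, 27, 73 and 67 counts and Nlrp3-/- G-MDSC libraries 132, 92, 132 and 119. M-MDSC libraries had only 3, 5, 1 and 4 counts in WT and 20, 20, 4 and 17 in Nlrp3-/- mice. Mean levels were 27.9 ± 3.87 CPM in Nlrp3-/- and 17.2 ± 6.96 in WT G-MDSCs, then 2.19 ± 1.06 in Nlrp3-/- and 0.702 ± 0.497 in WT M-MDSCs (SD, n = 4 each). G-MDSC libraries lay above M-MDSC libraries without overlap, and in 8 of 8 mice the G-MDSC library had more Siglecf CPM than the M-MDSC library. Between genotypes the groups overlapped in both subsets, in M-MDSCs through the Nlrp3-/- library with 4 counts and in G-MDSCs through the highest WT library, at 26.1 CPM. In WT M-MDSCs 2 of 4 libraries had over 3 counts, so levels there are near the limit of detection.

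Within a library the ratio of 2 genes does not depend on scaling. Per Ccr3 count, M-MDSC libraries held 0.118 to 0.161 Siglecf counts for WT and 0.0408 to 0.156 for Nlrp3-/- mice. In G-MDSCs the ratio was 1.16 to 1.85 for WT and 0.648 to 1.36 for Nlrp3-/- libraries. Over the summed counts of a group the ratio was 0.141 and 0.0938 in M-MDSCs and 1.33 and 0.990 in G-MDSCs of WT and Nlrp3-/- mice. The ratios of the subsets did not overlap, those of the genotypes did, and the ratio was higher in the G-MDSCs of 8 of 8 mice. Prg2 per Ccr3 count moved the other way, at 1.75 and 0.380 over the summed counts of M-MDSCs and 0.179 and 0.0563 over those of G-MDSCs, with overlap between the libraries of the subsets in WT mice. The 3 markers therefore did not keep the same proportions in both sorted subsets.

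**Figure D2:**
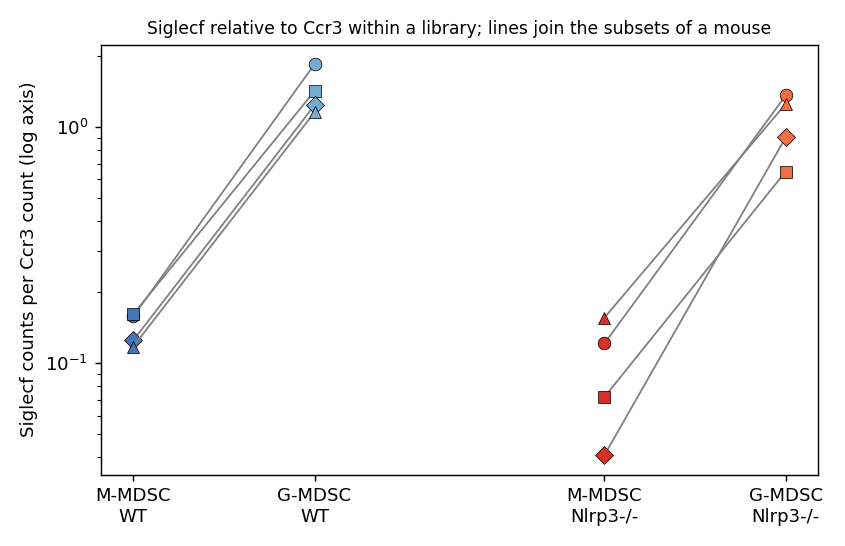
Siglecf counts per Ccr3 count in each library on a log axis, with a line joining the M-MDSC and G-MDSC library of a mouse. All 8 lines rise, from 0.0408 to 0.161 in M-MDSCs to 0.648 to 1.85 in G-MDSCs.

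Il5ra, the alpha chain of the interleukin 5 receptor (chr6:106710357-106749037, minus strand), had 1 to 15 counts per library. M-MDSC libraries had 3, 8, 5 and 9 counts in WT and 4, 4, 10 and 4 in Nlrp3-/- mice. G-MDSC libraries had 15, 9, 3 and 13 counts in WT and 1, 5, 15 and 4 in Nlrp3-/- mice. Mean levels were 3.46 ± 2.05 CPM in WT G-MDSCs, 1.41 ± 1.14 in WT M-MDSCs, 1.41 ± 1.22 in Nlrp3-/- G-MDSCs and 0.938 ± 0.773 in Nlrp3-/- M-MDSCs (SD, n = 4 each). All 4 groups overlapped. Its group means did not share the order of those of Ccr3 or Siglecf, being lower rather than higher in Nlrp3-/- mice in both subsets.

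Prg2, the major basic protein of eosinophil granules (chr2:84980461-84983632, plus strand), was led by M-MDSCs. WT M-MDSC libraries had 14, 130, 10 and 7 counts and Nlrp3-/- M-MDSC libraries 31, 97, 70 and 49. WT G-MDSC libraries had 1, 26, 0 and 2 counts and Nlrp3-/- G-MDSC libraries 10, 0, 6 and 11. Replicate 2 of the WT group was the highest in both subsets, and its libraries came from the same mouse. Mean Prg2 levels were 10.3 ± 6.29 CPM in Nlrp3-/- and 6.27 ± 8.02 in WT M-MDSCs, and 1.61 ± 1.27 in Nlrp3-/- and 2.48 ± 4.23 in WT G-MDSCs (SD, n = 4 each). Without that mouse the WT means were 2.26 ± 0.426 CPM in M-MDSCs and 0.371 ± 0.390 in G-MDSCs (SD, n = 3), and in CPM every Nlrp3-/- M-MDSC library then lay above every WT one. The M-MDSC library had more Prg2 CPM than the G-MDSC library in 8 of 8 mice.

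The M-MDSC library of that mouse also stood apart in other genes. Prg3, a second major basic protein gene 4.6 kb from Prg2, had 6 counts there and 0 in the other WT M-MDSC libraries. Ear1 and Ear6, ribonucleases of the eosinophil-associated family, had 31 and 14 counts there against 0 to 4 and 0 to 2. Genes of immature neutrophils were higher as well, with 726 counts of Mpo (myeloperoxidase) against 68 to 165, 346 of Elane (neutrophil elastase) against 49 to 105, and 882 of Prtn3 (proteinase 3) against 111 to 330. S100a8, an abundant neutrophil gene, had 3723 CPM against 566 to 752. The surface markers did not stand apart, since this library had 31 counts of Ccr3 against 8 to 34, 5 of Siglecf against 1 to 4 (0.703 against 0.178 to 1.37 CPM) and 8 of Il5ra against 3 to 9. Of 10696 genes with enough counts, 275 (2.57%) were over 2-fold higher there than in each other WT M-MDSC library. In the G-MDSC library of the same mouse Prg2 was likewise the highest of its group, while Prg3 had 0 counts and Ear1 had 2. Among Nlrp3-/- M-MDSCs, Prg3 had 0, 4, 5 and 5 counts and Ear6 4, 13, 6 and 6, so reads of both accompanied Prg2 there as well, except for Prg3 in replicate 1. The part of these genes in the Prg2 values was not tested.

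**Figure D3:**
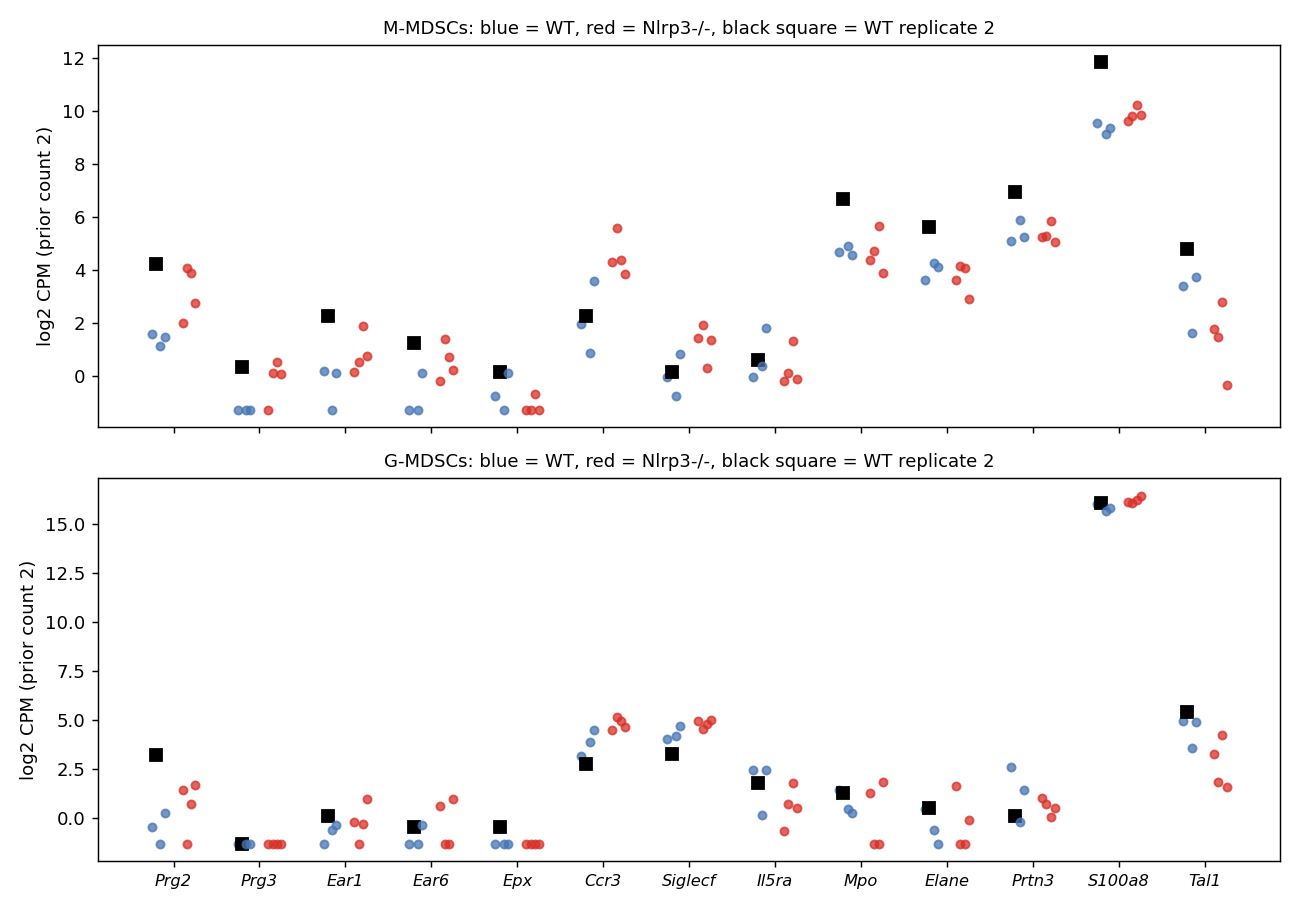
Log2 CPM (prior count 2) of 5 eosinophil granule genes, 3 eosinophil surface markers and 5 genes of other blood cells in M-MDSC (top) and G-MDSC (bottom) libraries; the black square is WT replicate 2. In M-MDSCs the square tops the WT libraries for Prg2, Prg3, Ear1, Ear6, Mpo, Elane, Prtn3, S100a8 and Tal1, and it lies among them for Ccr3 and Il5ra.

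Epx, eosinophil peroxidase (chr11:87864000-87875536, minus strand), had 10 counts in all 16 libraries together. WT M-MDSCs held 8 of them, with 1, 5, 0 and 2 counts. Nlrp3-/- M-MDSCs and WT G-MDSCs had 1 count each in all, and all 4 Nlrp3-/- G-MDSC libraries had 0, which allows up to 0.622 to 0.787 CPM per library. Only WT M-MDSC replicate 2 had over 3 counts, so Epx gives no comparison at this depth. Among the 5 eosinophil markers, 56 of 80 values lay over 3 counts and 13 were 0.

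The basophil and mast cell markers were close to the limit of detection in all 4 groups. Of their 64 values, 21 lay over 3 counts and 19 were 0. Cpa3, mast cell carboxypeptidase A (chr3:20215620-20242181, minus strand), had 2, 1, 4 and 1 counts in WT and 7, 3, 2 and 16 in Nlrp3-/- M-MDSCs. In G-MDSCs it had 1, 0, 9 and 3 counts in WT and 2, 2, 8 and 12 in Nlrp3-/- mice. Its counts thus overlapped between all groups, with a highest value of 16. Mcpt8, a basophil protease (chr14:56082166-56085273, minus strand), had 5, 5, 3 and 1 counts in WT and 6, 5, 0 and 0 in Nlrp3-/- M-MDSCs. It had 7, 3, 4 and 3 counts in WT and 9, 5, 0 and 12 in Nlrp3-/- G-MDSCs, and its groups overlapped too.

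Prss34, another basophil protease (chr17:25298394-25300165, plus strand), had 4, 6, 3 and 2 counts in WT and 2, 0, 3 and 5 in Nlrp3-/- M-MDSCs. In G-MDSCs it had 0, 0, 1 and 0 counts in WT and 1, 0, 3 and 9 in Nlrp3-/- mice. Every WT M-MDSC library had more Prss34 counts than every WT G-MDSC library, all of them at or below 6. Fcer1a, the alpha chain of the IgE receptor (chr1:173221284-173227214, minus strand), had 0 counts in all WT M-MDSC and all Nlrp3-/- G-MDSC libraries. It had 2, 1, 6 and 0 counts in Nlrp3-/- M-MDSCs and 1, 4, 1 and 0 in WT G-MDSCs. A count of 0 allows up to 0.422 to 1.03 CPM in a WT M-MDSC library. Unlike Prss34, the markers Cpa3, Mcpt8 and Fcer1a averaged more CPM in WT G-MDSCs than in WT M-MDSCs. Summed over the 4 markers, M-MDSCs had 1.72 ± 0.278 CPM for WT and 2.13 ± 0.492 for Nlrp3-/- mice, and G-MDSCs 2.84 ± 0.615 for WT and 3.86 ± 3.23 for Nlrp3-/- mice (SD, n = 4 each), and these sums overlapped between genotypes. Between the subsets of WT mice the sums did not overlap, at 1.37 to 2.04 CPM in M-MDSCs and 2.34 to 3.63 in G-MDSCs. That depends on the scaling, since by library size alone they averaged 2.16 and 2.13 CPM. Over all genes tested 51.9% did not overlap there.

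**Figure D4:**
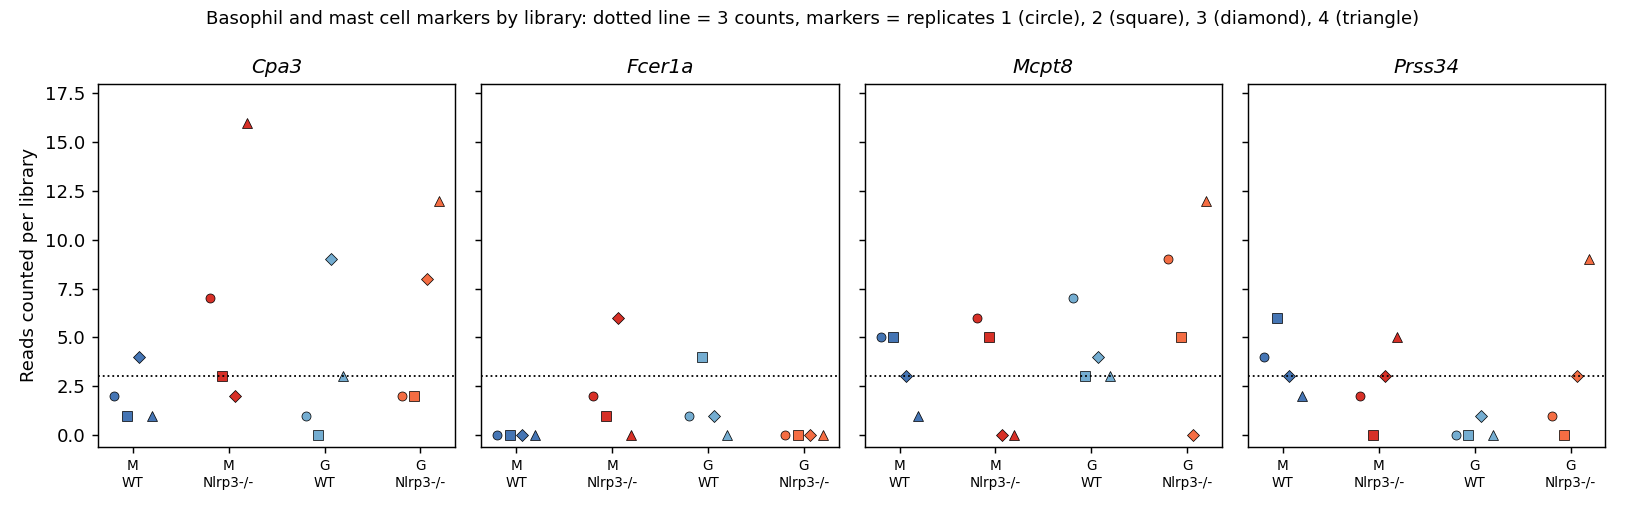
Reads counted per library for the 4 basophil and mast cell markers, with a dotted line at 3 counts, the smallest amount that can be shown. Values run from 0 to 16 and overlap between genotypes for each gene; Fcer1a is at 0 in all WT M-MDSC and Nlrp3-/- G-MDSC libraries.

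Across all genes, a call was a Benjamini-Hochberg adjusted p under 0.05 in edgeR's quasi-likelihood test together with a fold change above 1.5. The basophil and mast cell markers and Epx never passed the filter on low counts, and a marker that passed it did so through the groups in which it was high. In M-MDSCs Ccr3 and Prg2 could be fitted. Ccr3 had a log2 fold change of 2.39 (SE 0.54) in Nlrp3-/- over WT mice and Prg2 one of 0.63 (SE 0.70). Of these 2, Ccr3 lay past both thresholds and did not overlap, and over the 9986 tested genes 10.6% were called and 19.3% did not overlap. Nothing can be read from that count, since these values chose the markers. Without any 1 library the log2 fold change of Ccr3 was 1.84 to 3.01, with the lowest value without Nlrp3-/- replicate 2 and the highest without WT replicate 4. Without WT replicate 2 Ccr3 had 2.33 (SE 0.61), no longer past the thresholds, and Prg2 had 2.17 (SE 0.53), then past them. Over all genes tested the median log2 fold change was 0.07.

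In G-MDSCs Ccr3, Siglecf and Il5ra could be fitted. Their log2 fold changes in Nlrp3-/- over WT mice were 1.04 (SE 0.34), 0.61 (SE 0.28) and −1.31 (SE 0.74), beside a median of 0.03 over all genes. All 3 overlapped between genotypes, and over the 9273 tested genes 16.4% were called and 24.4% did not overlap. Siglecf and Il5ra lay short of the thresholds, whereas the side on which Ccr3 lay depended on the scaling and the tool. Without WT replicate 4, the WT library highest in Ccr3, the log2 fold change of Ccr3 was 1.42 (SE 0.33). The genotype effects of the subsets differed by −1.24 (SE 0.67) for Ccr3, −1.07 (SE 0.61) for Siglecf, −0.68 (SE 1.11) for Il5ra and −1.24 (SE 1.39) for Prg2 on the log2 scale, G-MDSCs minus M-MDSCs. Over all genes only 3 of 10696 (0.0280%) passed the test of this difference, against 480 at an unadjusted p under 0.05.

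Between the subsets of WT mice, Siglecf had a log2 fold change of 4.70 (SE 0.50) in G-MDSCs over M-MDSCs, Ccr3 one of 1.39 (SE 0.56) and Prg2 one of −1.43 (SE 1.06). Of these 3, Siglecf lay past the thresholds and did not overlap, and over the 9739 tested genes 53.3% were called and 51.9% did not overlap. Both subsets came from the same mice, and with the mouse as a block the values were 1.44 (SE 0.41) for Ccr3 and −1.77 (SE 0.56) for Prg2, which put all 3 past the thresholds. In Nlrp3-/- mice Siglecf had 3.52 (SE 0.36), Prg2 −2.75 (SE 0.70) and Ccr3 0.06 (SE 0.33). Siglecf and Prg2 lay past the thresholds and did not overlap, and over the 10071 tested genes 51.0% were called and 50.2% did not overlap. Again nothing is read from these counts. Without WT replicate 2 of G-MDSCs the subset difference of Prg2 in WT mice was −4.23 (SE 1.24), and without WT replicate 2 of M-MDSCs it was 0.05 (SE 1.02). Ccr3 lay past the thresholds there without WT replicate 4 of M-MDSCs or WT replicate 1 or 2 of G-MDSCs, at 1.99, 1.56 and 1.63. The sign of Ccr3 in Nlrp3-/- mice turned under library size alone, to −0.66, and, by at most −0.14, when 1 library was dropped in 4 of the 8 possible ways.

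Beyond the 9 markers, 77 further genes of these cells and their pathways were listed, of which 75 were present. In M-MDSCs 3 of the 47 that could be tested were called between genotypes, all higher in Nlrp3-/- mice, and in G-MDSCs 5 of 42, of which 3 were higher and 2 lower. Their median log2 fold change was 0.11 in M-MDSCs and 0.18 in G-MDSCs, and both shares of calls lay below those over all genes.

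Of 10 other eosinophil genes, 5 were tested in M-MDSCs and 1 rose, Clec4a4, a C-type lectin of myeloid cells. It had 4, 6, 12 and 8 counts in WT and 44, 27, 64 and 23 in Nlrp3-/- M-MDSCs, without overlap, and a log2 fold change of 2.08 (SE 0.57, edgeR adjusted p = 0.0389). The call held in the fits without Nlrp3-/- replicate 1 or 4 and was lost in each of the 6 others that left out a library (adjusted p up to 0.107). In G-MDSCs Clec4a4 had 1, 40, 7 and 7 counts in WT and 11, 11, 7 and 26 in Nlrp3-/- mice, a log2 fold change of −0.54 (SE 0.81, edgeR adjusted p = 0.682). The difference between these effects was −2.49 (SE 1.09) and did not pass (edgeR adjusted p = 0.992). Alox15, the lipoxygenase of eosinophils and some macrophages, had 3, 6, 4 and 10 counts in WT and 23, 35, 28 and 23 in Nlrp3-/- M-MDSCs, with a log2 fold change of 1.82 (SE 0.58) that missed the threshold (edgeR adjusted p = 0.0611). In CPM these groups overlapped, with WT up to 3.43 and Nlrp3-/- from 2.68. Alox15 was called with DESeq2, the exact test or library size only, and without WT replicate 4 or Nlrp3-/- replicate 1. It is named here after its values were seen. F5, coagulation factor V, Adgre4, an adhesion receptor shared with monocytes, and Ear2, the genes of the list with the most CPM, did not pass in either subset (edgeR adjusted p from 0.0893 to 0.792). In G-MDSCs none of 4 was called by edgeR's quasi-likelihood test, DESeq2 or the exact test, and 1 had an unadjusted p under 0.05. Ear2 and Adgre4 were lower in WT G-MDSCs than in WT M-MDSCs, by log2 fold changes of −2.99 (SE 0.39) and −4.48 (SE 0.47, edgeR adjusted p = 4.85e-05 and 7.41e-06), opposite in sign to Siglecf. F5, the only other gene of the list tested there, was called higher in WT G-MDSCs, the same sign as Siglecf. It averaged 172.6 CPM in WT G-MDSCs against 101.5 in WT M-MDSCs. Over all genes tested between these groups 53.3% were called. Ear10 and Ear12 had no counts in any library, and reads of the near-identical Ear genes may be shared among them, so their values are uncertain.

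Of 10 other basophil genes, Hdc, histidine decarboxylase, which makes histamine, differed most between the subsets. In WT mice it rose from 19 to 123 counts in M-MDSC libraries to 6072 to 10979 in G-MDSC libraries, a log2 fold change of 7.98 (SE 0.38, edgeR adjusted p = 1.83e-08), while the basophil markers above stayed at 0 to 12 counts in G-MDSCs. Between genotypes Hdc did not pass (log2 fold change 0.42, SE 0.32, in M-MDSCs and 0.28, SE 0.19, in G-MDSCs; edgeR adjusted p = 0.399 and 0.324). Il3ra, the interleukin 3 receptor alpha chain, was higher in M-MDSCs than in G-MDSCs of WT mice (log2 fold change −3.26, SE 0.65, edgeR adjusted p = 0.00111) and did not pass between genotypes. Itga2b, integrin alpha IIb, which platelets carry too, rose in Nlrp3-/- G-MDSCs from 8 to 24 counts to 36 to 84, by 1.21 (SE 0.37, edgeR adjusted p = 0.0377) on the log2 scale. That call held in the fits without WT replicate 1 or Nlrp3-/- replicate 1 and was lost in each of the 6 others that left out a library (adjusted p up to 0.109). Ms4a2, the beta chain of the IgE receptor, had at most 3 counts in 15 libraries and 14 in Nlrp3-/- G-MDSC replicate 3. Il13 and Ptgdr2 had none, and in M-MDSCs 0 of 3 tested genes of this list were called by edgeR's quasi-likelihood test, DESeq2 or the exact test, also at an unadjusted p under 0.05.

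Of 10 mast cell genes, 7 never exceeded 3 counts and Mcpt4, Tpsb2, Mrgprb1 and Mrgprb2, which mark connective tissue mast cells, had no counts in any library. Cma1, a chymase, had 0 to 22 counts. It lies 137.5 kb from Mcpt8 in the same protease cluster, and in M-MDSCs its log2 fold change between genotypes was 0.71 (SE 0.56, edgeR adjusted p = 0.415). Kit, the stem cell factor receptor, had 0 to 13 counts, and Mcpt2 at most 3. Cpa3 reads were thus not accompanied by reads of the tryptase Tpsb2. In M-MDSCs they were accompanied by reads of Cma1, with 1 to 16 counts per WT and 9 to 22 per Nlrp3-/- library.

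In the pathway of interleukin 5, the ligand Il5 had no counts, the related cytokines Il3 and Csf2 had 1 count each in all, and the eotaxin genes Ccl11 and Ccl24 had at most 5 counts per library. The receptor subunits Csf2ra and Csf2rb were well covered. Csf2ra, the GM-CSF receptor alpha chain, had 125.7 ± 26.6 CPM in WT and 197.8 ± 37.5 in Nlrp3-/- M-MDSCs (SD, n = 4), a log2 fold change of 0.68 (SE 0.19, edgeR adjusted p = 0.0396), and the genotypes overlapped. The call held without WT replicate 3 or Nlrp3-/- replicate 1 and was lost in each of the 6 other fits that left out a library (adjusted p up to 0.155). Csf2rb, the shared beta chain, had log2 fold changes of 0.45 (SE 0.19) in M-MDSCs and 0.64 (SE 0.26) in G-MDSCs that did not pass (edgeR adjusted p = 0.139 and 0.0995). Jak1 and Pim1, a kinase and a target of the pathway, did not pass either. Csf2ra, a gene of the GM-CSF receptor rather than of the interleukin 5 receptor, was the only call among the 9 tested genes of this list in M-MDSCs. In G-MDSCs 0 of 9 were called by edgeR's quasi-likelihood test, DESeq2 or the exact test, and 1 had an unadjusted p under 0.05.

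In the pathway of the IgE receptor, the gamma chain Fcer1g, which other Fc receptors of myeloid cells share, had log2 fold changes of 0.33 (SE 0.18) in M-MDSCs and 0.55 (SE 0.22) in G-MDSCs of Nlrp3-/- over WT mice and did not pass (edgeR adjusted p = 0.229 and 0.0919). Lat2, an adaptor downstream of it that B cells and monocytes also use, rose in both subsets. Its level was 218.0 ± 46.6 CPM for WT against 435.5 ± 119.3 for Nlrp3-/- M-MDSCs, with 56.9 ± 24.7 against 111.9 ± 21.9 in G-MDSCs (SD, n = 4), log2 fold changes of 1.02 (SE 0.21) and 0.90 (SE 0.26, edgeR adjusted p = 0.0127 and 0.0279). In M-MDSCs the call held without any library (adjusted p at most 0.0447), and in G-MDSCs it held only without WT replicate 1 or Nlrp3-/- replicate 1 (adjusted p up to 0.0764 in the 6 other fits). Fyn, a kinase of the receptor, fell in G-MDSCs by 0.75 on the log2 scale (SE 0.21, edgeR adjusted p = 0.0262), from 32.2 ± 2.82 to 20.3 ± 3.62 CPM (SD, n = 4). That call held without WT replicate 1 or 2 or Nlrp3-/- replicate 3 (adjusted p up to 0.0758 in the 5 other fits). In M-MDSCs Fyn had a log2 fold change of −0.51 (SE 0.17) without overlap and did not pass (edgeR adjusted p = 0.0683). The difference between the 2 effects of Fyn was −0.12 (SE 0.25) and did not pass. The kinase Lyn and the phosphatase Ptpn6 had log2 fold changes of 0.00 to 0.16 in size and did not pass.

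Among 12 transcription factors of these lineages, Gata1 had 1 to 67 counts per library and Gata2 0 to 8. Tal1, a partner of GATA factors in red cell, platelet and mast cell precursors, fell in Nlrp3-/- G-MDSCs by 1.83 on the log2 scale (SE 0.53, edgeR adjusted p = 0.0292), from 11.4 to 42.98 CPM in WT to 2.62 to 18.4 CPM in Nlrp3-/- libraries. The call held without WT replicate 1 or 3 or Nlrp3-/- replicate 3 and was lost in the 5 other fits that left out a library (adjusted p up to 0.0884), with a log2 fold change of −2.57 without Nlrp3-/- replicate 3, and in M-MDSCs Tal1 did not pass (log2 fold change −2.14, SE 0.71, edgeR adjusted p = 0.0688). Trib1, Id2 and Xbp1, the factors of this list with the most CPM, had log2 fold changes between −0.53 and 0.27 and did not pass. In the granule list, Ndst2, the enzyme that sulfates heparin in mast cell granules, rose in Nlrp3-/- G-MDSCs by 0.81 (SE 0.25, edgeR adjusted p = 0.0366) on the log2 scale, a call kept without WT replicate 1 or Nlrp3-/- replicate 1 (adjusted p up to 0.0994 in the 6 other fits). In M-MDSCs Ndst2 had 0.68 (SE 0.22) and did not pass (edgeR adjusted p = 0.0693), though DESeq2 and the exact test called it there. The difference between the 2 effects of Ndst2 was 0.24 (SE 0.34) and did not pass. Srgn, the granule proteoglycan serglycin, and Ctsc, the protease that activates granule proteases, did not pass between genotypes.

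**Figure D5:**
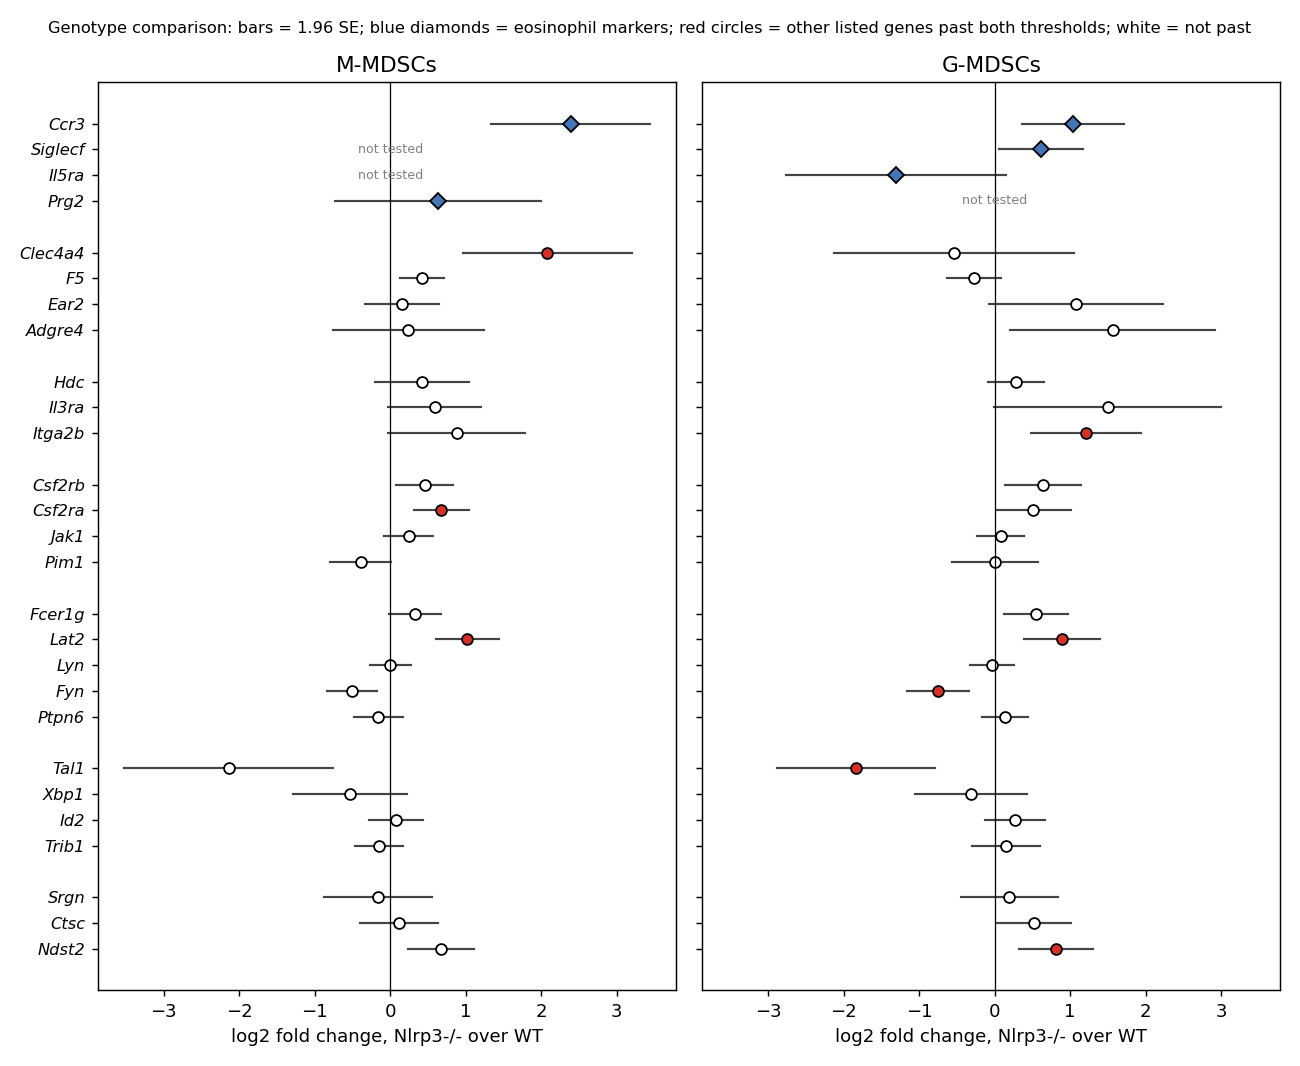
Log2 fold change of Nlrp3-/- over WT libraries with bars of the 95% interval for the eosinophil markers (diamonds, no test) and for the named genes of the other lists (circles, red where past both thresholds), in M-MDSCs and G-MDSCs. Blocks from top to bottom are the markers, other eosinophil genes, other basophil genes, the interleukin 5 pathway, the IgE receptor pathway, transcription factors and granule genes; Ccr3 has 2.39 and 1.04, and Lat2 is red in both panels.

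Markers of other cells moved with the genotype beside Ccr3. Of 6 red pulp macrophage markers, 4 rose in Nlrp3-/- M-MDSCs and 5 in Nlrp3-/- G-MDSCs. Their summed level was 68.7 to 76.9 CPM in WT and 147.9 to 262.4 in Nlrp3-/- M-MDSCs, and 81.4 to 226.0 against 343.1 to 479.4 in G-MDSCs, and none of them was at 0. C1qa, a complement gene of macrophages, rose by log2 fold changes of 2.44 (SE 0.20) and 1.58 (SE 0.35, edgeR adjusted p = 9.42e-05 and 0.00755). Of the neutrophil markers, Retnlg rose in M-MDSCs (2.44, SE 0.53, edgeR adjusted p = 0.0151) and Cxcr2 fell in G-MDSCs by 1.26 (SE 0.22, edgeR adjusted p = 0.00152) on the log2 scale. These were the exceptions in their lists, since the 4 other neutrophil markers tested in M-MDSCs had log2 fold changes of −0.78 (S100a9) to −0.01 (Mmp8), 4 of the 6 tested in G-MDSCs had positive ones, and none of these others was called. Csf1r, of the monocyte markers, rose in G-MDSCs, and the B cell gene Ms4a1 fell in both subsets. Summed monocyte markers lay at 633 to 943 CPM in WT and 1017 to 1223 CPM in Nlrp3-/- G-MDSCs, and summed dendritic cell markers at 152 to 205 against 210 to 269 CPM, both without overlap, whereas in M-MDSCs both sums overlapped. These G-MDSC sums rested mostly on a single gene each. Itgax averaged 176.4 CPM in WT and 240.8 in Nlrp3-/- G-MDSCs, where the dendritic cell sums averaged 177.9 and 243.5. Csf1r averaged 495.2 and 816.7 CPM, where the monocyte sums averaged 745.1 and 1112.3. Of 5 monocyte markers tested there, 4 had positive log2 fold changes, and Itgax was the only dendritic cell marker tested. The summed neutrophil, B cell, T and NK cell, and erythroid and platelet markers overlapped between genotypes in both subsets. The part of these cells in the values of Ccr3 and the other markers was not tested.

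Profiles over the 16 libraries were compared by the root mean square difference of log2 CPM after centring. The genes most like the summed eosinophil markers were Ulk3, Cyp4f13, Camta2, Gm14023 and Kcnj16, at 0.612 to 0.643, where the median over 10692 genes was 1.28. Those most like the summed basophil and mast cell markers were Tox4, Akirin1, Sap130, Prdx6 and Wsb2, at 0.311 to 0.352, where the median was 0.898. The eosinophil sum itself had an SD of 1.09 over the libraries, and the basophil and mast cell sum one of 0.550. A gene that did not vary would differ by about that SD, which lies below the median in both cases. Lying below the median can therefore come from varying little.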

How the data were processed

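The authors mapped QuantSeq 3′ reads to mm10 with HISAT2 2.1.0, counted them by strand on genes with HTSeq, and deposited whole-number counts of reads per gene symbol without normalization. The 15 or 17 amplification cycles were not tied to libraries, and the counts carry no unique molecular identifiers. Of 24421 symbols, 23376 matched GENCODE mm10 genes by symbol and 679 by an older symbol. RefSeq gave promoters.

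From these counts, R 4.3.3 and edgeR 4.0.16 (filterByExpr, TMM, quasi-likelihood test) fitted all genes within each comparison, with DESeq2 1.42.0 as an alternative. A call needs a Benjamini-Hochberg adjusted p under 0.05 and a fold change above 1.5. SE is the log2 fold change divided by the square root of F. Log2 CPM use a prior count of 2. The difference between genotype effects was tested over 16 libraries, as if the subsets of a mouse were independent. Replicates are separate mice.

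The markers and all other gene lists were chosen with earlier results of these data known, and the lists are therefore no independent evidence. Named are all 9 markers, per other list the 3 genes of highest mean CPM and those called between genotypes, Nlrp3, and the 5 genes of the most similar profile to each marker sum. Further genes, among them Alox15, Prg3, Ear1, Ear6, Mpo, Elane, Prtn3, Gata1, Gata2, Ms4a2 and the listed genes at or near 0, were named after their values were seen. The 4 listed genes Ear5, Ear11, Ly6g and Ighm were not analysed here. No list was tested as a set.

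Same-numbered M-MDSC and G-MDSC libraries come from the same mouse per the labels. Their deviations from the group means correlated at 0.239 on average in WT and 0.190 in Nlrp3-/- mice, over 0.1 in 3 and 2 of 4 pairs. Pairs of libraries within a group differed by far more than sampling noise (chi-square over degrees of freedom, 6.70 to 52.8). On simulated counts with 200 genes changed 3-fold, the quasi-likelihood test recovered 96% of them for M-MDSCs and 89.5% for G-MDSCs, with 4% and 2.72% of the calls false, and 53% for the difference between effects. The changed genes were drawn only from those with enough expected counts in the smallest library, and all genes shared a single dispersion. Recovery of genes with counts as low as those of most markers was thus not measured.

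Alternatives were other scalings, no filter, DESeq2, edgeR's exact test, a model of all libraries, a replicate block, no fold change minimum, and leaving out each library. Leaving out Rn45s and offsets for GC content and length were chosen after seeing the data.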

Additional observations from a re-analysis of the deposited data

Results flagged for a closer look

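Of 30 groups of 4 libraries in which a marker had reads enough to be checked, 4 held a library whose gap to the nearest other exceeded Dixon's 95% critical value, where chance alone gives about 1 in 20. The markers were chosen with these values known, so the flags only point out libraries. Prg2 stood out in WT M-MDSC replicate 2 at 18.3 CPM, on 130 counts, with 7 to 14 counts in the other WT M-MDSC libraries. Prg2 stood out in WT G-MDSC replicate 2, from the same mouse, at 8.80 CPM, with 0 to 0.778 in the others. Il5ra stood out in Nlrp3-/- M-MDSC replicate 3 at 2.09 CPM (10 counts), with 0.465 to 0.682 in the others, all of 4 counts. Mcpt8 stood out in WT G-MDSC replicate 1 at 2.34 CPM (7 counts), with 0.969 to 1.17 in the others, all of 3 or 4 counts.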

How the results depend on the processing

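No value changed sign while called. Counts of markers called are descriptions, since these values chose the markers. Of 355 refitted fold changes of named genes 276 kept their side of the thresholds, and of 36 group means of markers 33 moved by less than 1 SD under library size alone. In M-MDSCs 1060 genes were called between genotypes (351 higher, 709 lower), 450 to 1783 without a library, and 653 with GC content and length offsets; the listed other genes called (3) became 5 with library size only and with DESeq2, 6 with the exact test, 1 in the model of all libraries, and 1 to 7 without a library; the markers called (1) became 2 in the model of all libraries, which added Siglecf. In G-MDSCs 1522 genes were called (436 higher, 1086 lower), 965 with the offsets; the markers called (0) became 1, Ccr3, with no filter, upper-quartile scaling, DESeq2 size factors, the exact test, library size only, DESeq2 itself or the offsets, and 0 to 1 without a library; the other listed genes called (5) became 9 without the filter, 1 with the offsets and 0 to 6 without a library. Between the subsets in WT mice the markers called (1) became 2 with DESeq2 size factors, DESeq2, the exact test or the model of all libraries, 3 without the filter (Ccr3, Siglecf and Fcer1a, the latter on 0 counts in M-MDSCs and 6 in G-MDSCs), and 1 to 3 without a library. The 3 genes whose genotype effects differed became 5 without the filter and 2 to 5 without a library. The causes were not tested.

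Library size only moved the median log2 fold change of all genes by 0.10 in M-MDSCs and 0.12 in G-MDSCs between genotypes, and by −0.74 and −0.71 between subsets in WT and Nlrp3-/- mice, so that 684 genes were called higher and 569 lower in M-MDSCs and 793 and 854 in G-MDSCs. The split also moved by over 10 percentage points in M-MDSCs with the offsets (287 higher, 366 lower), in G-MDSCs with upper-quartile scaling (636, 992), the model of all libraries (828, 1079) and the offsets (415, 550), and between subsets with library size only (1166, 5061 in WT; 1146, 5034 in Nlrp3-/-) and, in WT, upper-quartile scaling (2051, 3324).

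WT and Nlrp3-/- libraries of the same number come from different mice, and their deviations correlated at −0.157 in M-MDSCs and −0.152 in G-MDSCs. Blocking on the replicate number, 425 genes were called in M-MDSCs (67 higher, 358 lower) and 985 in G-MDSCs; markers called became 0 in M-MDSCs and other listed genes called 0 in both. With the mouse as a block between subsets, 3 markers were called in WT mice, and no other call of a marker changed. At 0.349 to 1.17 CPM per 3 counts, Epx and the basophil markers were too low to be fitted with the filter.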
